A study of Mus musculus with 9 samples.

Results

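The small leucine-rich proteoglycans are a family of secreted matrix proteins, and 10 of their genes were followed here through 3 layers of the growth plate: Dcn, Bgn, Aspn, Fmod, Lum, Prelp, Kera, Omd, Epyc and Ogn. The members were taken by name, as every probe set of the array annotated to 1 of these genes and to no other, whatever its signal. That gave 21 probe sets of 45101 on the array, and 10 genes of 18193 named by it. Fmod had 6 probe sets, Bgn had 3, Dcn, Aspn, Prelp and Ogn had 2 each, and Lum, Kera, Omd and Epyc had 1 each.

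RNA was measured on Affymetrix mouse arrays in newborn (P0) wild-type mice of the Black Swiss background, which received no treatment. The growth plate of the proximal tibia was cut by hand from unfixed frozen sections into a round cell layer, a flat cell layer and a hypertrophic cell layer, and each layer was collected from 3 litters, giving 9 arrays, whose replicate numbers are taken here as the litters. The layers lie in order from round cells near the joint, through flat column-forming cells, to enlarged cells next to the bone. The comparison asks how the proteoglycan genes differ along that path. It is a path in space, and no cells were followed in time. Each array held RNA pooled from 18 to 20 tibiae of 1 litter of 9 to 10 pups, with no step that separated chondrocytes from tissue lying against each layer. In such bulk RNA, fewer cells of a type and less RNA per cell cannot be told apart.

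The deposited MAS5 signal is a linear measure of a probe set's brightness, and the authors' software had set each array to the same mean: leaving out 2% of probe sets at either end, the mean was 500.003 on every array, and the array medians lay between 123 and 152. The round and hypertrophic layers carried their marker genes. Prg4, the lubricin of the joint surface, had a signal of 15342 ± 3014 (SD, n = 3 litters) in the round layer and 199 ± 54.4 in the hypertrophic layer, and Col10a1, the collagen of hypertrophic chondrocytes, had 139 ± 111 and 11857 ± 918. A pair of arrays stood apart. In round litter 1, the 3' probe set of actin was 4.25 times as bright as the 5' one, a ratio that was 1.45 to 2.06 elsewhere, and for Gapdh the ratio was 2.59 beside 0.922 to 1.28. On the flat array of litter 3, the summed signal of 14 skeletal muscle genes was 488900, the highest of the 9 arrays. Where leaving out both arrays ended a call, gained one or moved a value by over 1.5 times, both values are given.

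Small leucine-rich proteoglycans are built of a short curved stack of leucine-rich repeats, and many of them bind collagen fibrils and set how thick the fibrils grow and how they are spaced. Class I holds decorin (Dcn), biglycan (Bgn) and asporin (Aspn). Decorin and biglycan carry chondroitin or dermatan sulfate chains, and all 3 can bind TGF-beta. Class II holds fibromodulin (Fmod), lumican (Lum), Prelp, keratocan (Kera) and osteoadherin (Omd), several of which can carry keratan sulfate, and class III holds epiphycan (Epyc) and osteoglycin (Ogn). Cartilage, tendon, cornea and bone each hold a different mix of the family.

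The genes lie in clusters, which makes their layer patterns easy to set side by side. In the RefSeq gene order of assembly GRCm38.p6, Prelp and Fmod are neighbours on chromosome 1, with Optc, another member of the family, next to Prelp. Dcn, Lum, Kera and Epyc follow each other on chromosome 10. On chromosome 13 the order is Ecm2, Aspn, Omd and Ogn, and Bgn lies alone on chromosome X, between Haus7 and Atp2b3. RefSeq promoter windows of the same build matched 8 of the 10 genes, all but Dcn and Lum. The 250 bases before the start are printed for the adjacent genes Aspn, Omd and Ogn. Of these, Omd rose from layer to layer, while Aspn and Ogn were lower in the hypertrophic than in the flat layer. The Aspn difference was lost under 12 of 23 other settings of the analysis. Fmod and Bgn are printed too, since both were highest in the round layer while lying on different chromosomes. The windows are chr13:49544193-49544442 for Aspn, chr13:49582212-49582461 for Omd, chr13:49607765-49608014 for Ogn, chr1:134037004-134037253 for Fmod and chrX:73483351-73483600 for Bgn, all on the plus strand. Each reads 5' to 3', and capitals mark the TATA box, the Runx core and the Sox core, spelled out after the windows, on either strand.
Aspn: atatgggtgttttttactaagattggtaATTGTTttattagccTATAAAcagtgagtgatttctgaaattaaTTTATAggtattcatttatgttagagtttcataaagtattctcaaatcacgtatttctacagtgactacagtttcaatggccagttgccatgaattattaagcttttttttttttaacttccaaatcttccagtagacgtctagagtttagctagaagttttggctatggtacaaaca
Omd: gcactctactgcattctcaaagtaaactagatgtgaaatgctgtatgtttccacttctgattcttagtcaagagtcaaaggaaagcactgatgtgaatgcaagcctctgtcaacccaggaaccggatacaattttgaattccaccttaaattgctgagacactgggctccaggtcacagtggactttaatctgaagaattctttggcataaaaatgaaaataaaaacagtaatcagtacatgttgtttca
Ogn: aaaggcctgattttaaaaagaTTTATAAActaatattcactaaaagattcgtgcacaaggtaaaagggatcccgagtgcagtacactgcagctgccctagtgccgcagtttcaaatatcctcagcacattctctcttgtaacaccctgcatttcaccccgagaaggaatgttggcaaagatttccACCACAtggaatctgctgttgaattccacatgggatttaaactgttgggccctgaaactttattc
Fmod: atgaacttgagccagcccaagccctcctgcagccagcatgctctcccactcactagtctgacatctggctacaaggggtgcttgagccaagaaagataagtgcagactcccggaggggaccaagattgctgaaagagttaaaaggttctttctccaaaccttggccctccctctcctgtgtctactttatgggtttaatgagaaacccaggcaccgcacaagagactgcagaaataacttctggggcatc
Bgn: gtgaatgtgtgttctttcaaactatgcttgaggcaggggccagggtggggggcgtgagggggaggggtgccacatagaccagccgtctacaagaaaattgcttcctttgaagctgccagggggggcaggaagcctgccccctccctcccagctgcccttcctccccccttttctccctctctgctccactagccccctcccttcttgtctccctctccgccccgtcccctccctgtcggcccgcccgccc

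The windows differed in base composition, from 30.0% G and C for Aspn through 38.4% for Omd, 42.0% for Ogn and 51.2% for Fmod to 64.4% for Bgn, beside a median of 52.4% over all 32851 windows of the table. A total of 6 short motifs were searched on both strands. The TATA box, TATAAA, was found in 12.4% of all windows, and the CCAAT box in 33.9%. Of the cores bound by transcription factors of the skeleton, that of Runx factors, TGTGGT, was in 14.1% of windows, and that of Sox factors, AACAAT, was in 9.42%. The AP-1 site, TGANTCA, was in 6.75% of windows, and the E-box, CANNTG, which the Aspn, Bgn, Fmod and Ogn windows held, was in 66.2%. Aspn held a TATA box match at 207 and at 178 bases before the start, a Sox core at 222 and a CCAAT box at 229. In Ogn, TATA box matches lay at 229 and 227 bases before the start, 1 on each strand and overlapping, and a Runx core lay at 65. Bgn and Fmod each held 1 E-box, at 102 and 189 bases before the start, Aspn held 1 at 97 and Ogn held 3. None of the 6 letter strings was in the Omd window. A match is a run of letters and does not show that a factor binds there.

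All 10 genes passed the filter on low signal and were tested. Each gene was read from its brightest single-gene probe set on average. Differences are between layer means of log2(signal + 26), the layer nearer the bone minus the layer nearer the joint. They came from limma over 11313 genes with litter as a block and a threshold of 0.05 on the Benjamini-Hochberg adjusted p. All 10 genes differed among the layers by the F test, which 28.4% of the genes tested passed, with adjusted p from 2.38e-07 for Prelp to 0.0453 for Dcn. The result for Dcn was borderline. When every probe set was fitted and adjusted over all probe sets, the same Dcn probe set missed the threshold of the F test (adjusted p = 0.0553). So did the second Aspn probe set (adjusted p = 0.0538). Between the flat and round layers, Lum and Omd were higher in the flat layer (8.39% of all genes were), Bgn, Fmod, Prelp and Kera were lower (8.64%), and 4 members did not pass. Between the hypertrophic and flat layers, Omd alone of the members was higher in the hypertrophic layer (6.12%), Aspn, Fmod, Prelp, Kera, Epyc and Ogn were lower (5.22%), and 3 did not pass. Between the hypertrophic and round layers, Dcn, Lum and Omd were higher (12.4%), Bgn, Fmod, Prelp, Kera, Epyc and Ogn were lower (12.7%), and Aspn did not pass. Every member difference that passed had the same sign in all 3 litters.

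The members' median log2 difference was -0.08 from round to flat, -0.92 from flat to hypertrophic and -1.02 from round to hypertrophic, beside -0.01, -0.00 and 0.01 over all genes tested. The arrays of the layers compared did not overlap for 6 members between flat and round (25.3% of all genes), for 6 between hypertrophic and flat (22.7%) and for 8 between hypertrophic and round (36.5%), Aspn and Epyc being the exceptions. The 6 between flat and round were Bgn, Fmod, Prelp, Kera, Omd and Ogn. Of these, Ogn did not pass (-0.24, adjusted p = 0.203), and on its second probe set the 2 layers overlapped (0.28). Fmod, Kera and Prelp stepped down at both boundaries, a pattern of 1.01% of all genes, and Omd stepped up at both, a pattern of 0.972%. With Bgn, those 3 made 4 members that were higher in the round layer than in either other layer (6.05%), while Lum and Omd were lower there than in either (4.8%). Epyc, Fmod, Kera, Ogn and Prelp were lower in the hypertrophic layer than in both others (2.78%).

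**Figure D1:**
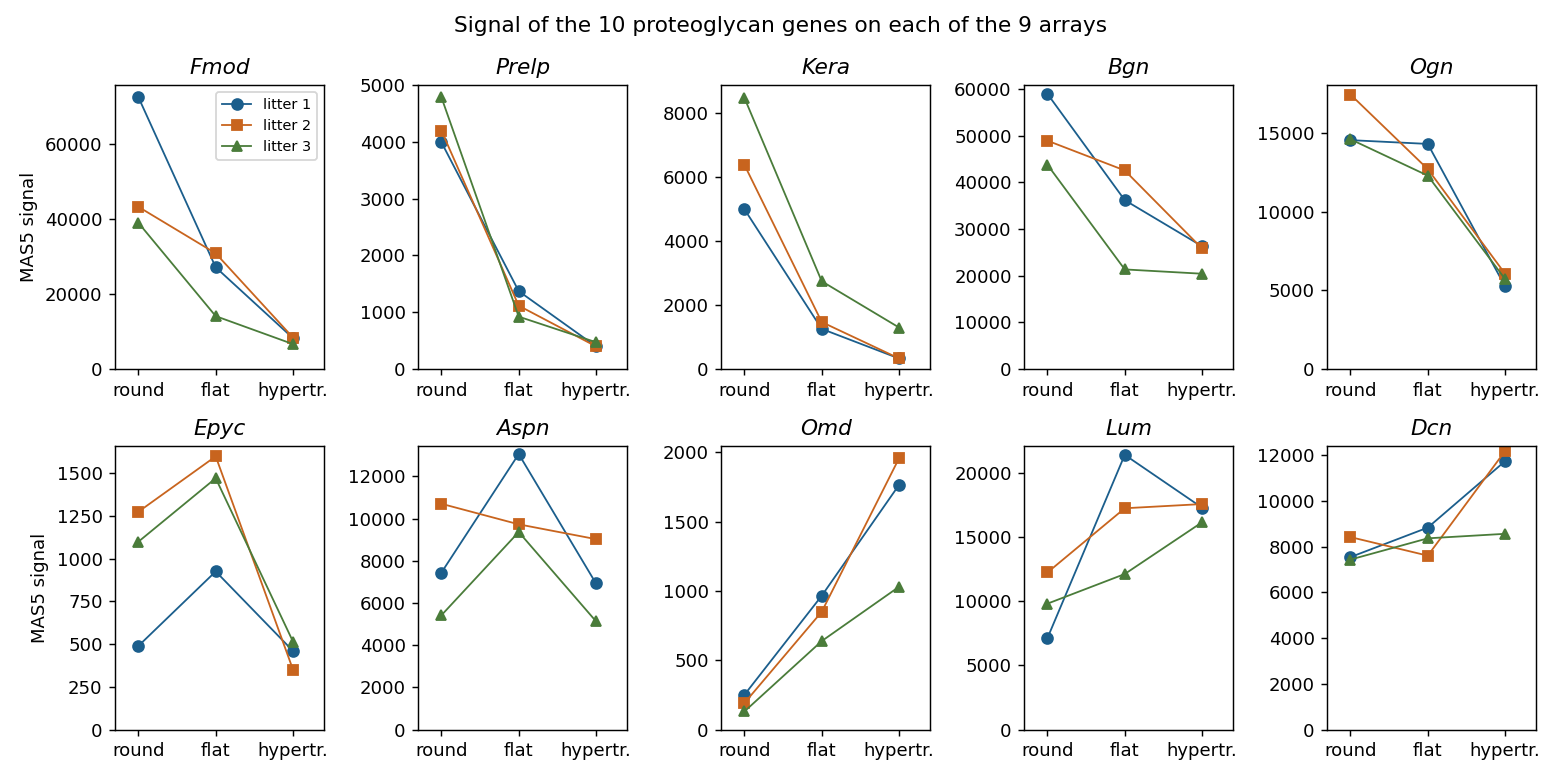
MAS5 signal (linear, each panel with its own scale from 0) of the 10 proteoglycan genes in the round, flat and hypertrophic layers, 1 line per litter (n = 3). Fmod, Prelp and Kera fall at each step in all 3 litters, Omd rises at each step, and Epyc is highest in the flat layer of each litter.

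Fibromodulin, which binds collagen fibrils beside lumican and is abundant in cartilage and tendon, was among the members that stepped down. The signal of Fmod was 72351, 43166 and 38903 in the round layer of litters 1, 2 and 3, 27062, 30779 and 14058 in the flat layer, and 8185, 8350 and 6610 in the hypertrophic layer. No array of 1 layer overlapped the next, and round litter 1 was the highest of all. From round to flat, Fmod was 2.18-fold lower (log2 difference -1.12 ± 0.19 SE, adjusted p = 0.00128), and 2.95-fold lower again in the hypertrophic layer (-1.56 ± 0.19, adjusted p = 0.000276). From round to hypertrophic the fall was 6.44-fold (-2.69 ± 0.19, adjusted p = 7.72e-07). With round litter 1 and flat litter 3 left out, the first of these differences was smaller, at -0.60 (adjusted p = 0.0031).

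Prelp, a basic member of the family that links the matrix to basement membranes and collagen, fell at both boundaries in every litter. Its signals were 3992, 4197 and 4784 in the round layer, 1370, 1114 and 921 in the flat layer, and 397, 397 and 470 in the hypertrophic layer, with no overlap between layers. The level was 3.78-fold lower in flat than in round (-1.92 ± 0.17, adjusted p = 1.28e-05) and 2.57-fold lower in hypertrophic than in flat (-1.36 ± 0.17, adjusted p = 0.000293). Over the whole path Prelp fell 9.72-fold (-3.28 ± 0.17, adjusted p = 6.78e-08), and litters 1, 2 and 3 gave -3.25, -3.32 and -3.28. The separate steps varied more between litters, with -1.53, -1.89 and -2.35 from round to flat and -1.72, -1.43 and -0.93 from flat to hypertrophic.

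Keratocan is known as a keratan sulfate proteoglycan of the cornea and is also found in other collagen-rich tissue. Kera signals were 4996, 6385 and 8481 in the round layer, 1252, 1467 and 2743 in the flat layer, and 327, 328 and 1296 in the hypertrophic layer. The hypertrophic array of litter 3 stood well above the other 2 and reached above the lowest flat array, so these layers overlapped, while the round layer lay above both. The fold was 3.73 lower from round to flat (-1.90 ± 0.22, adjusted p = 0.000113), 3.17 lower from flat to hypertrophic (-1.67 ± 0.22, adjusted p = 0.000545), and 11.8 lower from round to hypertrophic (-3.56 ± 0.22, adjusted p = 2.78e-07), the widest range of the 10 members on the log2 scale. Fitted without the replicate block, the flat to hypertrophic step of Kera missed the threshold (adjusted p = 0.0579).

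Biglycan, which carries chondroitin or dermatan sulfate and is abundant in cartilage and bone, had a shallower gradient. Bgn signals were 58948, 48919 and 43751 in the round layer, 36174, 42546 and 21328 in the flat layer, and 26305, 25819 and 20404 in the hypertrophic layer. Round and flat arrays did not overlap, but the flat array of litter 3 lay among the hypertrophic ones. Bgn was 1.57-fold lower in flat than in round (-0.65 ± 0.15, adjusted p = 0.0107) and 2.09-fold lower in hypertrophic than in round (-1.06 ± 0.15, adjusted p = 0.000247). The flat to hypertrophic difference of -0.41 (95% interval -0.74 to -0.09) did not pass (adjusted p = 0.104). The first of these calls rested on single arrays: adjusted p was 0.0665 without round litter 3, 0.0559 without flat litter 1, 0.0610 without flat litter 3 (-0.46), 0.0652 with round litter 1 and flat litter 3 both left out (-0.35), and 0.109 without the replicate block. Without flat litter 3 the flat to hypertrophic difference became -0.60 and passed (adjusted p = 0.0277), as it did without both arrays (-0.62, adjusted p = 0.0010).

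Markers of tendon and ligament, and of joint surface and resting chondrocytes, were mostly lower in hypertrophic than in round, as these 4 genes were. Skeletal muscle and fibroblast markers, given below, did not all run this way. Of 9 tendon and ligament genes, 8 were lower in hypertrophic than in round and 5 lower in flat than in round, and their summed signal was 78810 to 89436 in the round layer, 41494 to 64176 in the flat layer and 34771 to 39513 in the hypertrophic layer. Egr1 had the largest round signals of the list, 16477, 26605 and 21277. Scx did not pass from round to flat (-0.33, adjusted p = 0.516) and was lower in hypertrophic than in round (-1.21 ± 0.30, adjusted p = 0.0115). Thbs4, a thrombospondin of tendon, fell by 3.30 ± 0.20 from round to hypertrophic (adjusted p = 2.56e-07), and Tnmd, a tendon membrane protein, fell by 2.28 ± 0.19 (adjusted p = 2.73e-06). Of 7 joint surface and resting chondrocyte genes, 6 fell, and their sum went from 32990 to 46891 in the round layer to 1054 to 1422 in the hypertrophic layer. The part of tendon, ligament and joint surface cells in the decline of Fmod, Prelp, Kera and Bgn was not tested.

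**Figure D2:**
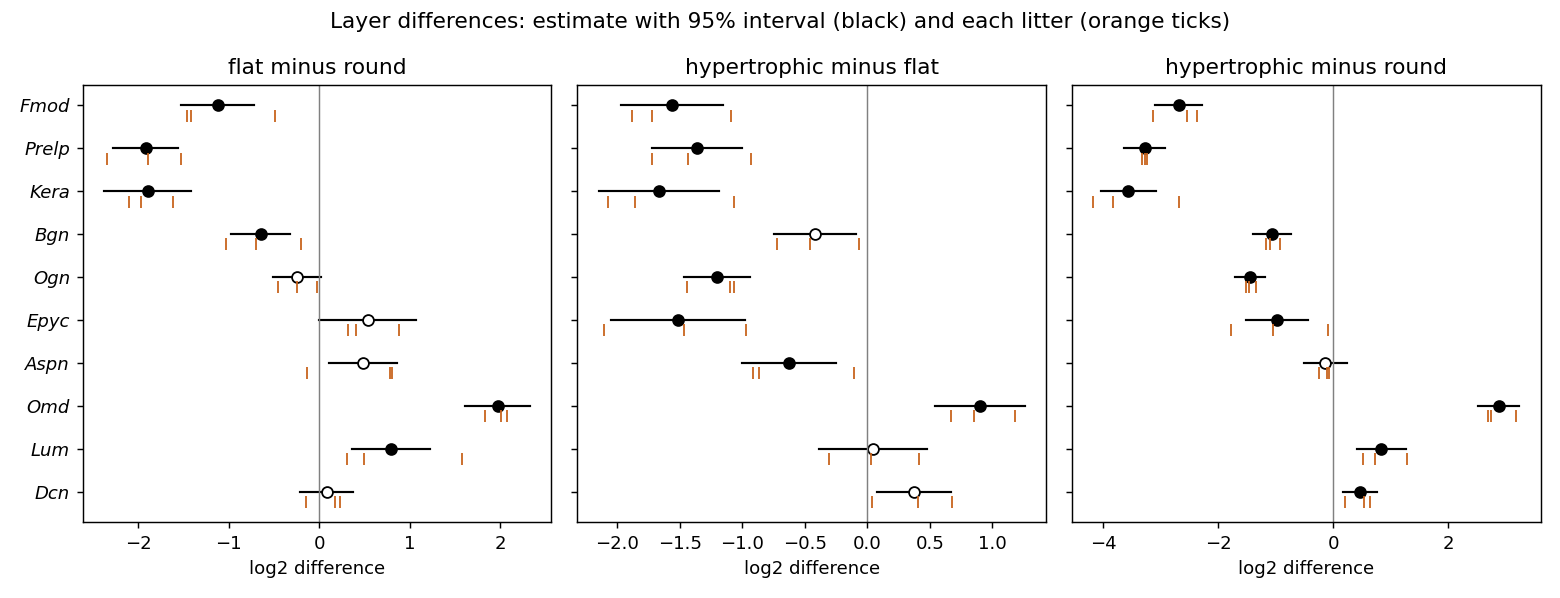
Log2 differences of the 10 members at each of the 3 comparisons of layers, with the limma estimate and its 95% interval in black and each litter as an orange tick. Filled points passed an adjusted p of 0.05, and from round to hypertrophic Kera, Prelp and Fmod lie farthest left while Omd lies farthest right.

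Osteoglycin, a small keratan sulfate proteoglycan first isolated from bone, fell between the flat and the hypertrophic layer. Ogn signals were 14545, 17445 and 14599 in the round layer, 14304, 12702 and 12288 in the flat layer, and 5248, 6053 and 5716 in the hypertrophic layer. The hypertrophic arrays lay far below all others, and the highest flat array lay just under the lowest round one. Ogn was 2.30-fold lower in hypertrophic than in flat (-1.20 ± 0.12, adjusted p = 8.57e-05) and 2.72-fold lower than in round (-1.45 ± 0.12, adjusted p = 3.48e-06). The round to flat difference was -0.24 (95% interval -0.51 to 0.02, adjusted p = 0.203).

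Epiphycan, a dermatan sulfate proteoglycan named for the epiphyseal cartilage where it is found, had its highest signal in the flat layer of each litter. Epyc signals were 490, 1274 and 1099 in the round layer, 925, 1597 and 1470 in the flat layer, and 460, 351 and 515 in the hypertrophic layer. Round litter 1 was low and lay among the hypertrophic arrays, and it was the array with the high 3'/5' ratios. Epyc was 2.86-fold lower in hypertrophic than in flat (-1.51 ± 0.25, adjusted p = 0.00204) and 1.97-fold lower than in round (-0.98 ± 0.25, adjusted p = 0.0118). The flat minus round value was 0.54 (95% interval 0.0026 to 1.07, adjusted p = 0.164). It was 0.23 without round litter 1 (adjusted p = 0.554), 0.18 without round litter 1 and flat litter 3 (adjusted p = 0.724), and 0.80 without round litter 2 (adjusted p = 0.0853). The round to hypertrophic call was lost without round litter 2 (-0.72, adjusted p = 0.0897), without hypertrophic litter 2 (-0.63, adjusted p = 0.0904), without hypertrophic litter 3 (adjusted p = 0.0519) and without the replicate block (adjusted p = 0.0593).

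Asporin, which carries a stretch of aspartates and can bind collagen and TGF-beta, differed least between the ends of the path. Aspn signals were 7443, 10701 and 5422 in the round layer, 13058, 9728 and 9365 in the flat layer, and 6927, 9026 and 5134 in the hypertrophic layer. Flat arrays lay above all hypertrophic arrays, and the round layer overlapped both. Aspn was 1.55-fold lower in hypertrophic than in flat (-0.63 ± 0.17, adjusted p = 0.0346), but this call was lost under 12 of 23 other settings, among them no replicate block (adjusted p = 0.220), flat litter 1 left out (0.206), flat litter 3 left out (0.153), both arrays that stood apart left out (-0.46, 0.0651), and hypertrophic litters 1, 2 or 3 left out (0.158, 0.0654 and 0.158). Flat minus round was 0.49 (95% interval 0.11 to 0.86, adjusted p = 0.0747). Over the 23 other settings it ranged from 0.19 with both arrays that stood apart left out (adjusted p = 0.565) to 0.80. The highest value came without probe sets that may cross-hybridise. The difference passed under 4 settings, among them flat litter 2 left out (0.77, adjusted p = 0.0029) and round litter 2 left out (0.67, adjusted p = 0.0414). Hypertrophic minus round was -0.14 (95% interval -0.52 to 0.23, adjusted p = 0.590), and -0.27 without both arrays that stood apart (adjusted p = 0.211).

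Osteoadherin, the keratan sulfate proteoglycan of mineralised matrix that binds hydroxyapatite, was the member that stepped up. Omd signals were 252, 192 and 131 in the round layer, 966, 851 and 639 in the flat layer, and 1766, 1958 and 1031 in the hypertrophic layer. The layers did not overlap, and litter 3 was the lowest in each of them. Omd was 3.93-fold higher in flat than in round (1.97 ± 0.16, adjusted p = 1.11e-05), 1.87-fold higher in hypertrophic than in flat (0.90 ± 0.16, adjusted p = 0.00415) and 7.33-fold higher in hypertrophic than in round (2.87 ± 0.16, adjusted p = 1.45e-07). The flat to hypertrophic step missed the threshold without the replicate block (adjusted p = 0.0955).

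Lumican, a keratan sulfate proteoglycan that binds collagen fibrils at a site shared with fibromodulin, took the opposite course to Fmod at the first boundary. Lum signals were 7130, 12230 and 9804 in the round layer, 21381, 17225 and 12109 in the flat layer, and 17273, 17552 and 16133 in the hypertrophic layer. The hypertrophic arrays lay above the round ones, the flat array of litter 3 lay within the round range, and round litter 1, with the high 3'/5' ratios, was the lowest. Lum was 1.73-fold higher in flat than in round (0.79 ± 0.20, adjusted p = 0.0154) and 1.79-fold higher in hypertrophic than in round (0.84 ± 0.20, adjusted p = 0.00807). Hypertrophic minus flat was 0.04 (95% interval -0.38 to 0.47, adjusted p = 0.928), and -0.10 without both arrays that stood apart. Without round litter 1 both increases were smaller, at 0.49 (adjusted p = 0.0421) and 0.53 (adjusted p = 0.0213). Without flat litter 1 the flat to round difference was 0.51 and did not pass (adjusted p = 0.110), nor did it pass with no mean-variance trend (adjusted p = 0.0635), and without hypertrophic litter 3 the round to hypertrophic difference did not pass (0.77, adjusted p = 0.0530).

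Decorin, the dermatan sulfate proteoglycan that binds collagen I fibrils, varied least among the members by the F test. Dcn signals were 7539, 8411 and 7430 in the round layer, 8827, 7601 and 8358 in the flat layer, and 11727, 12168 and 8555 in the hypertrophic layer. Round and flat arrays overlapped, and hypertrophic litter 3 stood near the lower layers while the other 2 were higher. Dcn was 1.37-fold higher in hypertrophic than in round (0.46 ± 0.14, adjusted p = 0.0272). Flat minus round was 0.08 (95% interval -0.21 to 0.38, adjusted p = 0.730; -0.17 without both arrays that stood apart) and hypertrophic minus flat was 0.37 (95% interval 0.08 to 0.67, adjusted p = 0.104), which passed with round litter 1 and flat litter 3 both left out (0.51, adjusted p = 0.0064). The one call of Dcn was lost without round litters 1, 2 or 3 (adjusted p = 0.0729, 0.0648 and 0.05003, the last just above the threshold), without hypertrophic litters 1 or 2 (0.121 and 0.179), without the replicate block (0.0682) and with no mean-variance trend (0.0806). Averaged with the dim second probe set of the gene, the value was -0.31.

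Markers of bone, of hypertrophic chondrocytes and of muscle also differed between the layers, and several moved with the members that were higher towards the bone. Of 7 osteoblast genes tested, 6 were higher in flat than in round, 5 higher in hypertrophic than in flat and 6 higher in hypertrophic than in round. Their median log2 difference from round to hypertrophic was 3.52. The summed signal of the 8 osteoblast genes on the array, with Mepe below the filter, was 69811 to 92327 in the round layer, 86646 to 144900 in the flat layer and 154490 to 182290 in the hypertrophic layer. Most of the round sum was Col1a1, with signals of 87709, 61735 and 68139 there. Col1a1 is also on the fibroblast list and did not differ between hypertrophic and round (-0.06, adjusted p = 0.815). The sums therefore understate how far the other osteoblast genes rose. Of 9 osteoclast genes, 8 were higher in hypertrophic than in round, with sums of 7084 to 8758 in the round layer and 76051 to 100090 in the hypertrophic layer. All 7 prehypertrophic and hypertrophic chondrocyte genes tested were higher too, with sums of 13129 to 19065 in the round layer and 129580 to 144710 in the hypertrophic layer. This list shares Alpl and Ibsp with the osteoblast list, so the 2 lists are not separate. Ibsp alone had signals of 45719, 46518 and 38651 in the hypertrophic layer. The osteoclast sums also hold Calcr, and the chondrocyte sums Ihh, both below the filter. Of 14 skeletal muscle genes, all were higher in flat than in round and 12 were lower in hypertrophic than in flat, with sums of 135150 to 218340 in round, 310830 to 488900 in flat and 131600 to 306500 in hypertrophic. The part of these cells in the values of Omd, Lum, Dcn, Epyc and Aspn was not tested.

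Probe sets of 1 gene mostly ran the same way. The 6 probe sets of Fmod were lower at every boundary, with differences of -2.11 to -1.10 from round to flat, -1.66 to -1.56 from flat to hypertrophic and -3.72 to -2.68 from round to hypertrophic, and all passed. The 3 of Bgn passed from round to flat (-0.74 to -0.65) and from round to hypertrophic (-1.19 to -0.96), and their adjusted p from flat to hypertrophic was 0.104 to 0.316. Both of Prelp passed at every boundary, with -3.28 and -3.07 over the whole path. The pair for Ogn had opposite signs from round to flat, -0.24 and 0.28, with neither past the threshold, and both fell from round to hypertrophic (-1.45 and -1.01). For Aspn the flat minus round difference was 0.49 on 1 probe set (adjusted p = 0.0918) and 0.80 on the other (adjusted p = 0.0404), on a scale adjusted over all probe sets. On the second probe sets of Ogn and Aspn, round litter 1, the array with the high 3'/5' ratios, was low: its Ogn signal was 4764 beside 11053 and 11945 in the other round arrays, and its Aspn signal was 2178 beside 5948 and 5324. The part of RNA quality in these signals was not tested. The second Dcn probe set had signals of 8.5 to 143 and lay below the filter.

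**Figure D3:**
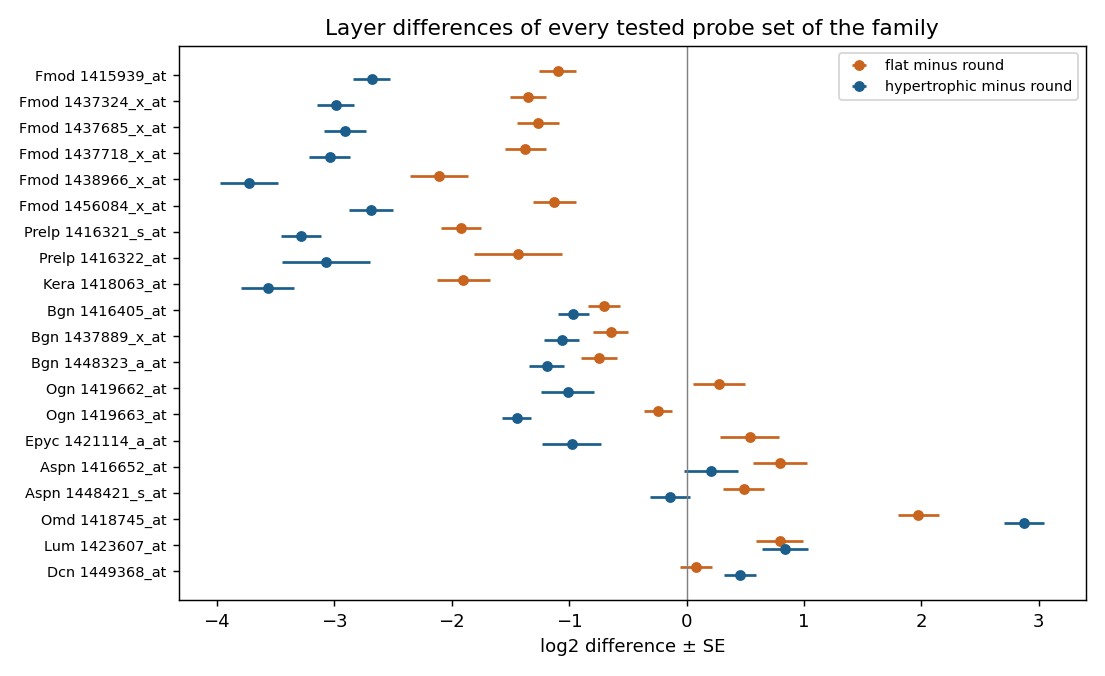
Log2 differences of every tested probe set of each member from round to flat (orange) and from round to hypertrophic (blue), as the limma estimate ± SE. Probe sets of Fmod, Bgn and Prelp all lie below 0, while the pair for Ogn straddles 0 between round and flat.

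Layer patterns were alike for the neighbours on chromosome 1 and mixed on chromosomes 10 and 13. On chromosome 1 both Prelp and Fmod stepped down. On chromosome 10 Kera stepped down and Epyc peaked in the flat layer of each litter, while Lum and Dcn were higher in the hypertrophic than in the round layer. On chromosome 13 Omd stepped up between Aspn and Ogn, which were lower in the hypertrophic than in the flat layer. Ecm2, a related leucine-rich protein gene next to Aspn, had signals of 455, 729 and 525 in the round layer, 69.0, 133 and 175 in the flat layer and 6.68, 79.1 and 17.2 in the hypertrophic layer. Its hypertrophic signals lay around 26, the 20th percentile of all signals, so no size is given for its fall. Of the 4 other family genes above the filter, Ecm2 and Podn were lower in hypertrophic than in round, Podn by -1.59 ± 0.30 (adjusted p = 0.00188), while Chad and Chadl had values of -0.33 and -0.22 that did not pass.

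**Figure D4:**
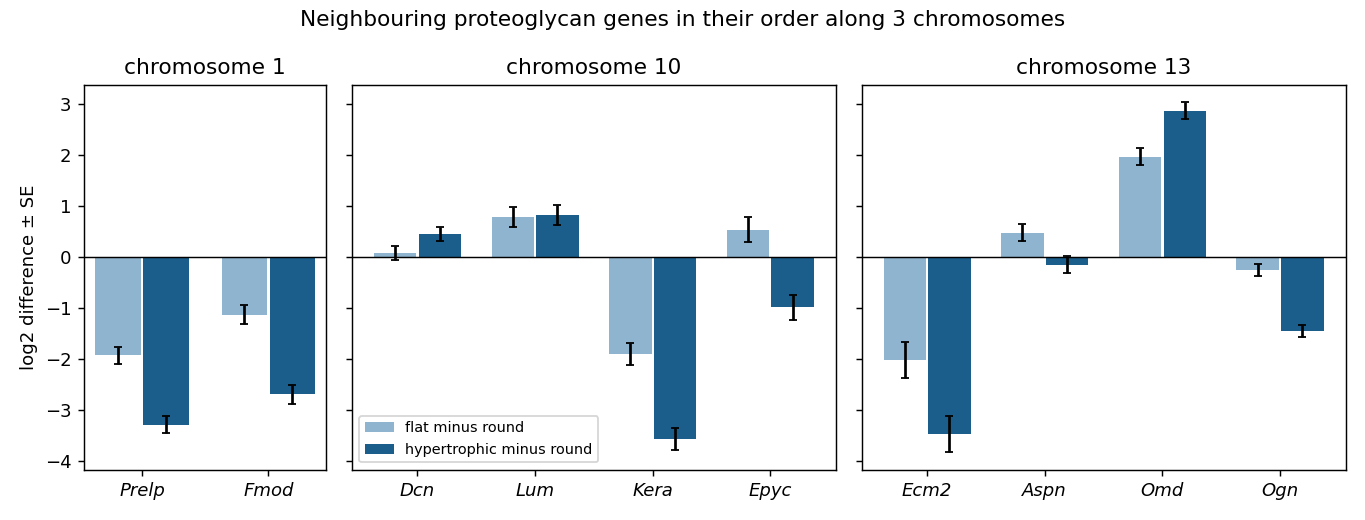
Log2 differences (bars, ± SE from limma) from the round layer to the flat layer (light) and to the hypertrophic layer (dark), for genes of the family in their order along chromosomes 1, 10 and 13. Omd, at 1.97 and 2.87, stands between Aspn and Ogn, and Kera, at -1.90 and -3.56, between Lum and Epyc. The bars of Ecm2 rest on signals near background outside the round layer.

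The genes around the family moved in several directions. Of 19 collagens that form or coat fibrils, 2 were higher and 9 lower in hypertrophic than in round, with Col14a1, a fibril-associated collagen, at -2.80 ± 0.13 (adjusted p = 5.57e-08), and Col22a1 at 1.81 ± 0.16 (adjusted p = 5.83e-06). Of 21 linker and chondroitin or dermatan sulfate synthesis genes, 5 were higher and 6 lower, among the lower ones Dse, the epimerase that makes dermatan sulfate, at -0.92 ± 0.16 (adjusted p = 0.00116). Chst13, a chondroitin sulfotransferase, was among the higher ones, with signals of 21.8, 44.1 and 39.9 in the round layer, near the 20th percentile of 26, and 545, 423 and 308 in the hypertrophic layer. In keratan sulfate synthesis, 3 of 11 genes were higher and 1 lower. The lower one was Chst5, which sulfates the chain, at -2.43 ± 0.22 (adjusted p = 7.52e-06). Its signals were 815, 1123 and 825 in the round layer and 90.0, 176 and 156 in the flat layer. From round to flat alone it fell by 2.53 ± 0.22 (adjusted p = 1.48e-05).

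Of 9 tested genes for enzymes that process or cut the family, 5 were higher in hypertrophic than in round. Bmp1, which trims the propeptides of biglycan and osteoglycin, was 1.01 ± 0.17 higher (adjusted p = 0.000825), and Mmp13, a collagenase of hypertrophic cartilage, was 2.88 ± 0.20 higher (adjusted p = 6.68e-07). Of 13 genes for TGF-beta ligands, receptors and other partners, 3 were higher and 8 lower, with Tgfb1 at 1.84 ± 0.16 (adjusted p = 5.64e-06) and Tlr2, a receptor that biglycan can engage, at -1.29 ± 0.24 (adjusted p = 0.00189). Of 8 chondrocyte genes, 5 were lower, Sox9 among them at -2.57 ± 0.20 (adjusted p = 1.76e-06). Of 15 perichondrium and fibroblast genes, 6 were lower and 1 higher. Dpt, a fibroblast matrix gene, was at -3.83 ± 0.28 (adjusted p = 1.17e-06), and the higher one, Thy1, was at 1.92 ± 0.14 (adjusted p = 1.15e-06). Counts for the remaining lists were 3 higher and 1 lower of 10 macrophage genes, 3 higher and 1 lower of 10 endothelial genes, 2 of 2 erythroid genes higher and 4 of 4 neutrophil genes higher.

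**Figure D5:**
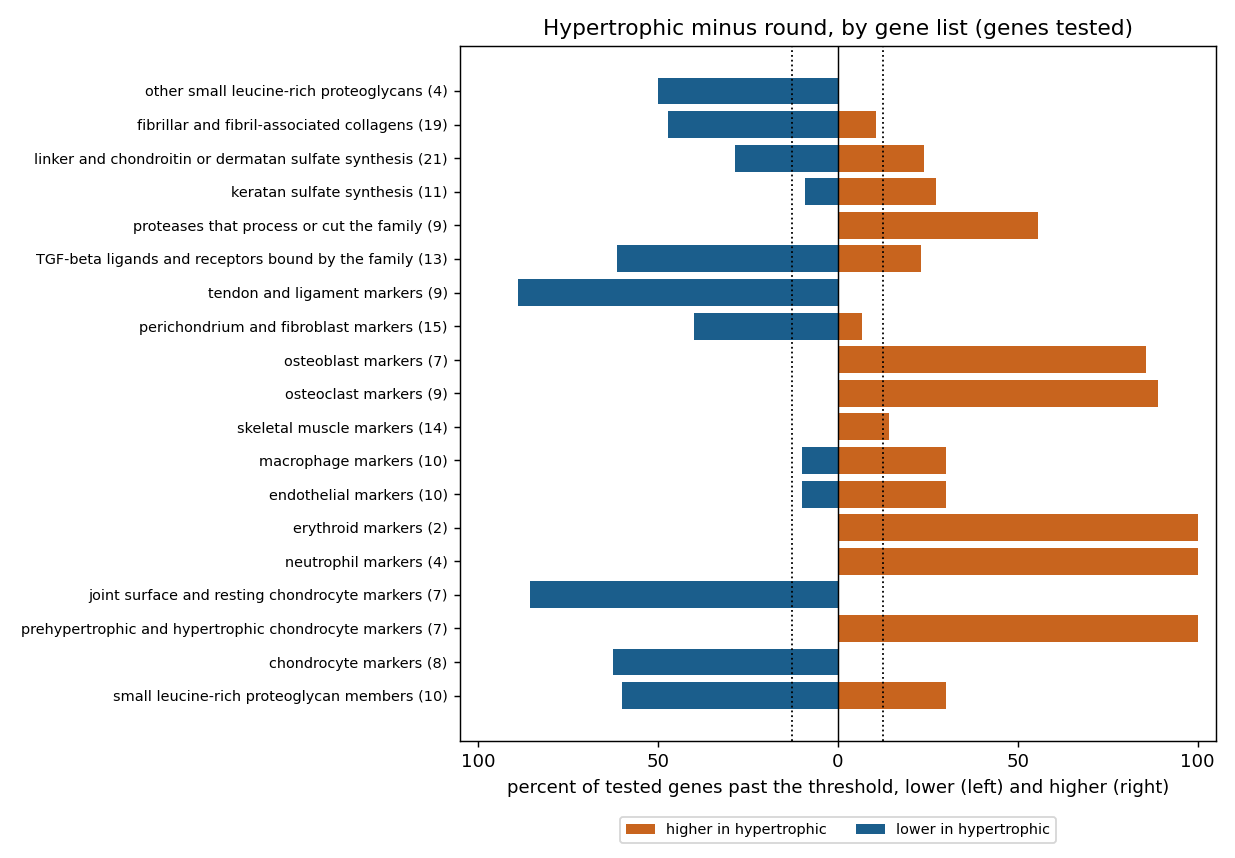
Percent of tested genes of each list that were lower (left) or higher (right) in the hypertrophic than in the round layer at an adjusted p of 0.05, with the number tested in brackets. Dotted lines mark all genes (12.7% lower, 12.4% higher), and the 10 members had 6 lower and 3 higher.

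The genes whose log2 values ran closest to each member over the 9 arrays are given as a description, since layer differences shared by many genes shape such correlations. Prelp ran with Aopep (r = 0.993), Adgrg6 (0.991) and Egfl6 (0.989), and Fmod ran with Ecrg4 (0.987), Col6a1 (0.986) and Map9 (0.984). Kera ran with Esyt1 (0.989), Ghr (0.986) and Shisa2 (0.975), and Ogn with Fbn2 (0.988), Mfap4 (0.986) and Mapk1ip1 (0.983). Omd ran with Rftn1 (0.983), Pltp (0.981) and Gpc1 (0.981). The closest gene had a lower r for Lum (Srrd, 0.976), Epyc (Vps41, 0.967), Dcn (Gla, 0.956) and Aspn (Zfp82, 0.938), and Bgn ran closest to Lrrk1 (0.983).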

How the data were processed

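The deposited values were MAS5 signals, a linear intensity for each probe set that the authors made with Affymetrix Expression Console, per the submitters' processing notes, with no versions given. The signals of 45101 probe sets on 9 arrays were used as deposited. Probe sets were named through the platform annotation (34945 had 1 gene, 932 several, 9160 none), and symbols were updated through the RefSeq table for 34741. The members and gene lists were chosen with earlier results of these data known. Each gene was represented by its brightest single-gene probe set on average, log2(signal + 26) was taken (26 being the 20th percentile of the signals), and genes with a mean under 7.21, the median with control probe sets set aside, were left out. A linear model was fitted in limma 3.58.1 (R 4.3.3) to 11313 genes, with litter as a fixed block, a mean-variance trend and Benjamini-Hochberg adjustment over all genes, and it was tested on simulated data. Differences are on the log2(signal + 26) scale, which understates the change of low genes, and the 3 contrasts share arrays. The series' design text says that 3 litters gave the triplicates and that 1 sample came from 1 litter, but no label names the litters, so the shared replicate number was taken as the litter. Same-numbered arrays deviated together from their layer means (r = 0.167 to 0.517 for 9 pairs, against -0.434 to 0.081 for 18 pairs of different numbers). The genes named from the lists were up to 4 tested genes with the smallest F-test p in each list, with the layer check genes Prg4 and Col10a1 and, for each member, the 3 genes with the highest r. A few others were named to show what a list or its sum holds. Precision rests on 3 arrays per layer, since signals carry no counts. Alternatives were other pseudocounts, filters, scalings, probe set choices, variance models, blocks and left-out arrays. Promoter windows came from RefSeq (GRCm38.p6).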

Additional observations from a re-analysis of the deposited data

How the results depend on the processing

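Of 30 member differences, 15 kept their direction and their side of the threshold under all 23 alternatives. With no mean-variance trend, 1 member in place of 2 was higher in flat than in round, and leaving out single arrays gave 1 to 3. For hypertrophic above flat, the count of 1 became 0 with no replicate block and 2 with round litter 1 and flat litter 3 both left out. Averaging all probe sets of a gene turned the sign of 5 differences: Dcn was -0.28 from round to flat, -0.038 from flat to hypertrophic and -0.31 from round to hypertrophic, a mean that takes in its dim second probe set, Ogn was 0.018 from round to flat and Aspn 0.032 from round to hypertrophic. Leaving out single arrays moved Dcn, round to flat, over -0.023 to 0.22, Lum, flat to hypertrophic, over -0.17 to 0.33, and Aspn, round to hypertrophic, over -0.25 to 0.039. With both arrays that stood apart left out, Dcn was -0.17 and Lum -0.10 in the same contrasts. Without probe sets that may cross-hybridise, an alternative chosen after seeing the data, Aspn was 0.21 from round to hypertrophic. Of these sign changes, only that of Dcn from round to hypertrophic touched a value past the threshold. There the bright probe set alone gave 0.46, and the mean took in the dim second one. The second had signals of 86.7, 57.5 and 70.1 in the round layer and 15.7, 22.1 and 21.2 in the hypertrophic layer. Why it was lower there was not tested, nor was the cause of the other sign changes. Over all genes, dropping the replicate block cut the higher and lower calls from 949 and 977 to 405 and 530 (flat minus round), from 692 and 591 to 356 and 197 (hypertrophic minus flat), and from 1405 and 1435 to 862 and 962 (hypertrophic minus round). Leaving out single arrays gave as few as 336 higher and 255 lower calls between hypertrophic and flat, 837 and 933 between hypertrophic and round, and 625 and 600 between flat and round. Averaging probe sets left 644 lower calls in flat. Centring arrays on their medians moved the share of higher calls from 53.9% to 65.2% for hypertrophic minus flat and from 49.3% to 39.7% for flat minus round. The fit has 4 residual degrees of freedom.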
